A study of Mus musculus with 6 samples.

Results

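Keratins are the intermediate filament proteins of epithelial cells, and desmosomal cadherins are the adhesion proteins that tie those filaments to the next cell. Here 60 genes of these families were followed in CT26 tumours, out of 40303 gene models in the expression table. They are the protein coding genes whose symbols are Krt with a number, Dsc or Dsg. In all there were 52 keratins and 8 desmosomal cadherins. The keratins lie on mouse chromosomes 11 (27 genes) and 15 (25 genes), and the 8 cadherins on chromosome 18.

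CT26 is a poorly differentiated colon carcinoma line of BALB/c mice, here grown under the skin of wild-type BALB/c hosts. In 3 mice PEGylated glutaminase, a long-lived form of an enzyme that breaks down glutamine, was given into the peritoneum at 50 IU/kg every 3 days, for 2 treatments (PEG-glutaminase group). The other 3 mice received the vehicle, PBS with 10% glycerol (vehicle group). Each library is bulk messenger RNA of 1 frozen tumour from 1 mouse, so p-values measure the spread between mice. The labels state neither the ages of the mice nor how the tumours were freed of skin. Tumour and host are of the same strain, so their reads cannot be told apart. In bulk tissue, fewer cells of a type and less RNA per cell also cannot be told apart.

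A keratin filament is built from pairs of 1 acidic type I and 1 basic type II keratin, and the pair marks the kind of epithelium. Krt18 and Krt19 (type I) with Krt8 and Krt7 (type II) form the filaments of simple epithelia such as the gut lining. Krt14 and Krt5 are the pair of basal keratinocytes, Krt10 and Krt1 that of the suprabasal layers of epidermis. Krt6a, Krt16 and Krt17 are switched on in wounded or stressed epidermis. In a desmosome, desmocollins (Dsc) and desmogleins (Dsg) of neighbouring cells bind each other outside the membrane. Inside, plakoglobin (Jup), plakophilins and desmoplakin (Dsp) link them to the keratins.

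The libraries held 16455052 to 18051480 reads on gene models. Values are normalized counts, that is, reads divided by a size factor of each library, and 3 values of a group stand in the order of replicates 1, 2 and 3. A count of 0 allows up to 3 reads, or 2.90 to 3.11 normalized counts depending on the library. Intervals and floors cover counting error only. Fold bounds set at a floor take the vehicle mean as observed, without its own counting error. Among 13557 genes whose mean reached 10 normalized counts, 42 (0.310%) were at least 10-fold higher in vehicle 1 than in any other library, against 0 or 1 in each of the other 5 libraries. Of these 42 genes, 12 (28.6%) were keratins or desmosomal cadherins. Fitted changes that rest on vehicle 1 are therefore given with and without it.

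Related keratins share coding sequence, which bears on how reads could be assigned to them. The lines show the last 60 coding bases of the rod, the helical part through which keratins pair, 5′ to 3′ on the coding strand. They come from the longest open reading frame (start to stop codon) among each gene's protein coding GENCODE M21 transcripts, of the C57BL/6J genome (GRCm38). Type I keratins are shown, and capitals mark bases that differ from Krt14.
Krt14: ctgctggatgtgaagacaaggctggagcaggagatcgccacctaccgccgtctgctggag
Krt17: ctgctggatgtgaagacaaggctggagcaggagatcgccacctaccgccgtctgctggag
Krt16: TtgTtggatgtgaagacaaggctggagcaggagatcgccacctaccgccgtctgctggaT
Krt18: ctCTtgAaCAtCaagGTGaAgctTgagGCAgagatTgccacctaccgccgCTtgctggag
Krt20: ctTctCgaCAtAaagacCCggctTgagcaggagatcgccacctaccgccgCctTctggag
Krt17 did not differ from Krt14 at any of these 60 bases. Krt16 differed at 3, Krt20 at 10 and Krt18 at 17. Over the whole coding sequence Krt14 was identical to Krt16 at 86.5% of aligned bases and to Krt18 at 69.4%.

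Sequence sharing was uneven among the members described here. Windows of 50 transcript bases found exactly in another gene made up 45.5% of Krt6a (shared with Krt6b, Krt5 and others), 37.6% of Krt16 (Krt14, Krt17 and a gene model of their family) and 26.9% of Krt8 (its pseudogene Krt8-ps). The shares were 14.4% in Krt14, 8.52% in Krt5 and 3.99% in Krt17, and 0% in Krt20, Krt80, Krt10, Krt1, Krt19, Krt7, Dsc1, Dsc2 and Dsc3. The labels do not state how shared reads were counted, so the split among Krt6a, Krt16, Krt14, Krt17 and Krt5, and the level of Krt8, are uncertain to that extent. In 6 members exons overlap a gene on the other strand. The longest overlap was that of Krt6a with the antisense gene Gm49428 (471 of 2418 bases), and Krt80, Krt10, Krt5, Krt8 and Krt7 overlap others over 263, 146, 129, 101 and 77 bases. The labels do not state the strand setting. Within these shared bases, reads of a member and of the gene on the other strand therefore cannot be told apart.

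Most members were absent or nearly so. At the depth of 102872849 reads over the 6 libraries, 21 of 60 had no read at all, which allows up to 3 reads, and 16 more had between 1 and 30 reads in total. In 9 members every library had at least 1 read. The hair shaft keratins, 15 genes, had 10 members with no read, and summed to between 2.06 and 6.21 normalized counts in the PEG-glutaminase tumours and between 3.92 and 4.91 in the vehicle tumours. Only 18 members, 15 keratins and 3 cadherins, reached a mean of 10 and were tested. Of these, 10 would fall under that mean without vehicle 1, so they entered the test through a library of the group in which they were high.

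**Figure D1:**
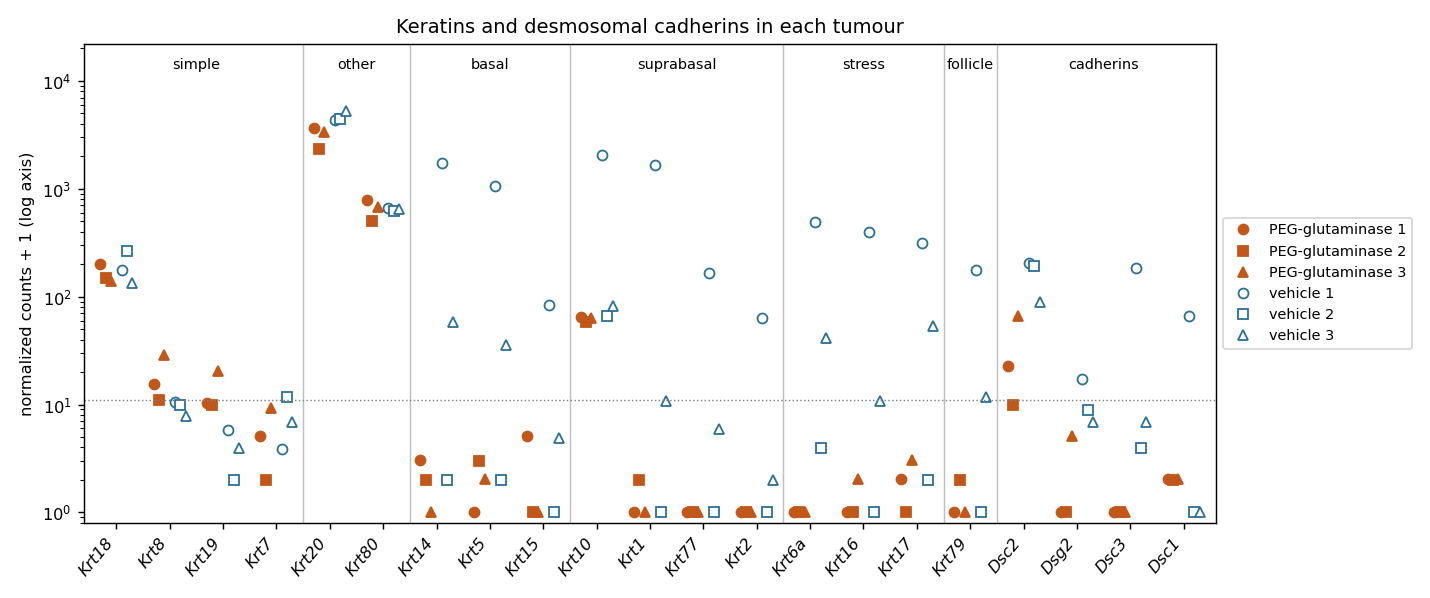
Normalized counts plus 1 (log axis) of 21 members in each tumour, filled symbols for PEG-glutaminase and open symbols for vehicle, with circles, squares and triangles for replicates 1, 2 and 3. The dotted line marks 10 normalized counts, and vehicle 1 (open circle) stands far above the other libraries in the basal, suprabasal and stress keratins but not in the simple-epithelial ones, Krt20 or Krt80.

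None of the 18 tested members passed in PEG-glutaminase against vehicle tumours (limma, 0 of 18 at an adjusted p under 0.05, against 0.0369% of all 13557 tested genes). The unadjusted p was under 0.05 for 4 members (Krt20, Dsc2, Dsc3 and Krt6a), or 22.2%, against 18.4% of all tested genes. With edgeR 0 members passed (3 unadjusted, against 18.2% of genes), and with DESeq2 3 members, Krt20, Krt6a and Krt17, against 3.90% of the 12490 genes to which it gave an adjusted p. DESeq2 gave none to 11 of the 18 members. Both groups stood apart without overlap in 6 members, or 33.3%, against 25.8% of all tested genes. Of these members 5 had PEG-glutaminase lower (12.7% of all genes) and 1 had it higher (13.1% of all genes). Without vehicle 1 they stood apart in 7, against 38.8% of genes, with PEG-glutaminase lower in 5 (19.2% of genes) and higher in 2. In Krt6a and Dsc3 the gap rests on 3 reads in vehicle 2 against 0 in the PEG-glutaminase tumours. A count of 0 also allows those 3 reads. Dsc1 is among the 2 higher ones only through 1 read in each PEG-glutaminase tumour. These shares are a description of genes chosen as a family, of which most passed the filter through vehicle 1. With 3 tumours a group, an exact permutation test of 1 gene cannot give a p below 0.1.

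Krt20 carried most keratin RNA in 5 of 6 tumours. It is a type I keratin of the differentiated gut lining and urothelium. It had 3652, 2349 and 3374 normalized counts in the PEG-glutaminase tumours, against 4317, 4464 and 5226 in the vehicle tumours. Every PEG-glutaminase tumour lay under every vehicle tumour. Krt20 averaged 3125 ± 686 normalized counts in PEG-glutaminase tumours and 4669 ± 488 in vehicle tumours (SD, n = 3 each). The fitted log2 change was -0.60 ± 0.17 (SE), which did not pass in limma (adjusted p = 0.153) or edgeR (adjusted p = 0.157). DESeq2 put it at -0.58 with an adjusted p of 0.0103, and over all 15 alternative settings the adjusted p ran from 0.0103 to 0.348. Without vehicle 1 the fitted log2 change was -0.65. The share of keratin reads that were Krt20 was 77.1%, 76.1% and 78.2% in the PEG-glutaminase tumours, and 32.1%, 81.7% and 82.4% in the vehicle tumours, with vehicle 1 the low one.

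Krt80, a type II keratin found in many epithelia, had the next most reads outside vehicle 1. It had 778, 498 and 673 normalized counts in the PEG-glutaminase tumours, against 663, 627 and 645 in the vehicle tumours. The groups overlapped, and the fitted log2 change was -0.013 ± 0.15 (SE; limma adjusted p = 0.971). Per length, Krt20 stood at 73.3 to 110.1 RPKM (reads scaled to transcript length and library depth) in PEG-glutaminase tumours and 130.8 to 159.1 in vehicle tumours. Krt80 stood at 7.64 to 11.5 RPKM in PEG-glutaminase tumours and 9.03 to 9.96 in vehicle tumours. Per length, then, Krt80 was under Krt20 in each library.

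**Figure D2:**
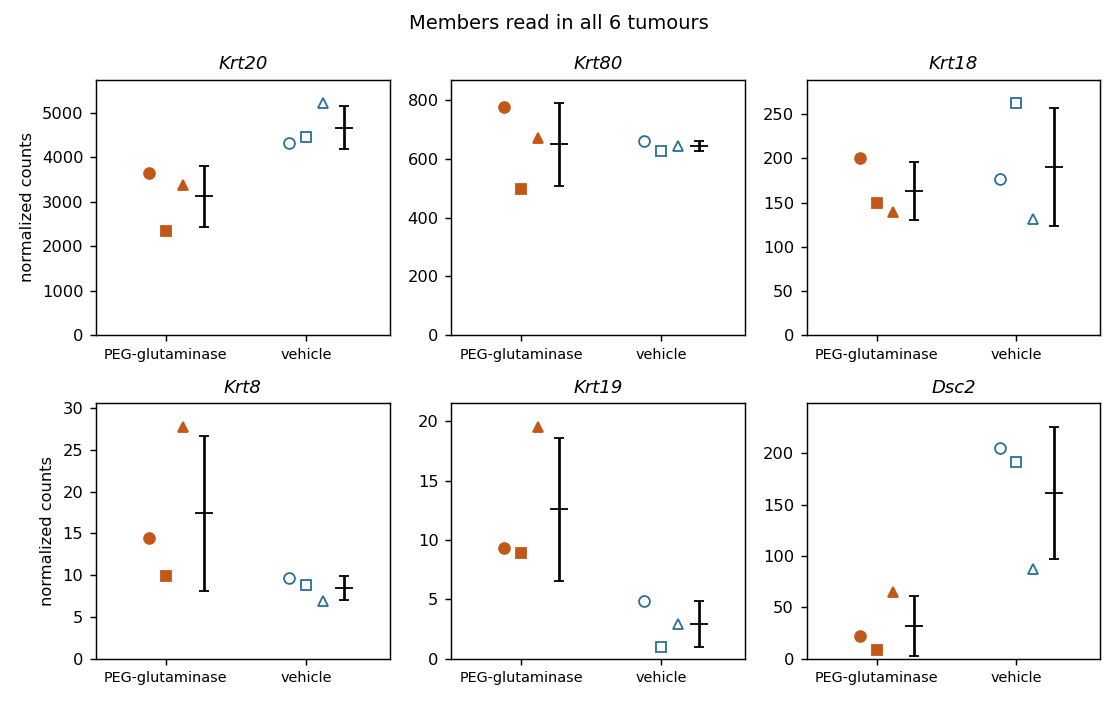
Normalized counts of 6 members with at least 1 read in each tumour, PEG-glutaminase left and vehicle right, with circles, squares and triangles for replicates 1, 2 and 3. Bars show mean ± SD of 3 tumours, and the groups do not overlap in Krt20 and Dsc2 (PEG-glutaminase lower) or in Krt8 and Krt19 (PEG-glutaminase higher).

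The 4 simple-epithelial keratins were low, and Krt18 made up most of their sum. Krt18 had 201, 149 and 140 normalized counts in the PEG-glutaminase tumours, against 177, 263 and 131 in the vehicle tumours. The groups overlapped, with the highest and the lowest values both in vehicle tumours, and the log2 change was -0.18 ± 0.25 (SE; limma adjusted p = 0.729). It turned to 0.082 without vehicle 2.

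Krt8, the type II partner of Krt18, had 14.5, 9.90 and 27.8 normalized counts in the PEG-glutaminase tumours, against 9.66, 8.83 and 6.87 in the vehicle tumours. It was the only tested member with PEG-glutaminase higher in the fit, at a log2 change of 0.85 ± 0.45 (SE; limma adjusted p = 0.332), or 0.47 without PEG-glutaminase 3. The gap between the groups was narrow, with 9.90 normalized counts in PEG-glutaminase 2 next to 9.66 in vehicle 1. These counts rest on 77 reads in all 6 libraries.

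Krt19, a type I keratin with an unusually short tail, was under the mean of 10 and so outside the test. It had 9.32, 8.91 and 19.5 normalized counts in the PEG-glutaminase tumours, against 4.83, 0.981 and 2.94 in the vehicle tumours. Each PEG-glutaminase tumour exceeded each vehicle tumour. In a fit with no filter on low values the log2 change was 1.84 ± 0.56 (SE; limma adjusted p = 0.133), and 2.20 without vehicle 1. Krt7, common in glandular and ductal epithelia, had 4.14, 0.990 and 8.23 normalized counts in the PEG-glutaminase tumours, against 2.90, 10.8 and 5.89 in the vehicle tumours, and the groups overlapped.

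Krt18 exceeded its partner Krt8 in every tumour. The ratio of their RPKM values was 18.9, 20.6 and 6.86 in the PEG-glutaminase tumours, and 24.9, 40.6 and 26.1 in the vehicle tumours. PEG-glutaminase 3, with the highest Krt8, had the lowest ratio. Krt8 reads shared with its pseudogene could shift these ratios.

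The epidermal keratins gave another picture, with 1 vehicle tumour far above the rest. Krt14 had 2.07, 0.990 and 0 normalized counts in the PEG-glutaminase tumours, against 1727, 0.981 and 56.9 in the vehicle tumours. Krt5, its type II partner, had 0, 1.98 and 1.03 normalized counts in the PEG-glutaminase tumours, against 1068, 0.981 and 34.3 in the vehicle tumours. Vehicle 1 was high, vehicle 3 much lower, and vehicle 2 as low as the PEG-glutaminase tumours, so the groups overlapped in both genes. Krt15, another basal and hair follicle keratin, had 4.14, 0 and 0 normalized counts in the PEG-glutaminase tumours, against 82.1, 0 and 3.92 in the vehicle tumours, and its log2 change of -2.10 was -0.36 without vehicle 1. The log2 changes of Krt14 and Krt5 were -4.99 ± 2.63 and -4.53 ± 2.41 (SE), and -2.55 and -2.20 without vehicle 1, with limma adjusted p values of 0.375 and 0.377.

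Krt10, the type I keratin of suprabasal cells, was read at a steady low level outside vehicle 1. It had 63.2, 57.4 and 62.8 normalized counts in the PEG-glutaminase tumours, against 2064, 65.7 and 80.4 in the vehicle tumours. Although the groups did not overlap, vehicle 2 stood only just above the highest PEG-glutaminase tumour, and the log2 change of -1.85 ± 1.49 (SE; limma adjusted p = 0.548) became -0.25 without vehicle 1. Krt1, its partner in suprabasal cells, did not share that steady level. It had 0, 0.990 and 0 normalized counts in the PEG-glutaminase tumours, against 1671, 0 and 9.81 in the vehicle tumours. In vehicle 1 the RPKM of Krt10 was 1.85 times that of Krt1, and in vehicle 3 it was 12.3 times.

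Krt77 and Krt2, further type II keratins of differentiated epidermis, had no read in the PEG-glutaminase tumours. Krt77 had 165, 0 and 4.91 normalized counts in the vehicle tumours, and Krt2 had 62.8, 0 and 0.981. Both groups thus overlapped at 0 in these genes, and neither passed (limma adjusted p = 0.330 for Krt77 and 0.398 for Krt2). With 3 reads over the PEG-glutaminase group as the floor, the mean of Krt77 was at least 55.7-fold lower than in the vehicle group. Without vehicle 1 it was at least 2.41-fold lower, a bound that rests on 5 reads in vehicle 3. For Krt2 the mean was at least 20.9-fold lower, a bound that cannot be given without vehicle 1. Krt79, a keratin of the hair follicle canal, had 0, 0.990 and 0 normalized counts in the PEG-glutaminase tumours, against 175, 0 and 10.8 in the vehicle tumours, and its log2 change of -3.34 was -1.45 without vehicle 1.

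The stress keratins followed the same libraries, and in Krt6a and Krt17 vehicle 3 was nearer to vehicle 1 than in the epidermal keratins. Krt6a had no read in any PEG-glutaminase tumour, against 492, 2.94 and 40.2 normalized counts in the vehicle tumours, so the groups did not overlap. The gap to vehicle 2 rests on 3 reads there, which a count of 0 also allows. The mean of Krt6a was at least 175-fold lower in PEG-glutaminase tumours, and at least 21.2-fold lower without vehicle 1. It did not pass in limma (adjusted p = 0.197) or edgeR (adjusted p = 0.421), and passed in DESeq2 (adjusted p = 0.0192); over 15 alternatives the adjusted p ran from 0.0192 to 0.471. Krt17 had 1.04, 0 and 2.06 normalized counts in the PEG-glutaminase tumours, against 315, 0.981 and 52.0 in the vehicle tumours. The groups overlapped through vehicle 2, and the log2 change was -4.13 ± 1.90 (SE; limma adjusted p = 0.315), with adjusted p values of 0.0288 to 0.601 over 15 alternatives, the lowest by DESeq2. Without vehicle 1 the log2 change of Krt17 was -2.48. Krt16 had 0, 0 and 1.03 normalized counts in the PEG-glutaminase tumours, against 397, 0 and 9.81 in the vehicle tumours, and its log2 change of -3.68 was -1.38 without vehicle 1.

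**Figure D3:**
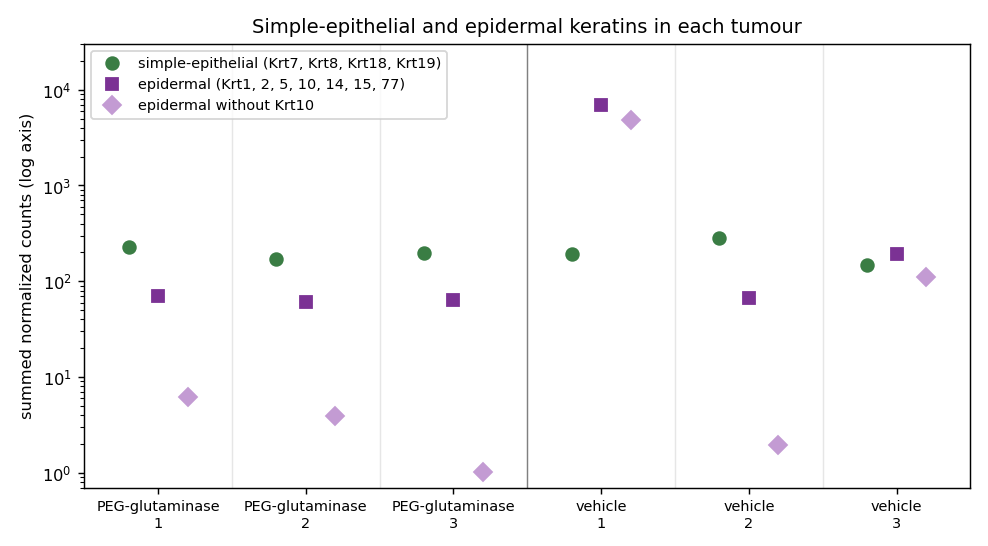
Summed normalized counts (log axis) of 4 simple-epithelial keratins (circles), 7 epidermal keratins (squares) and the epidermal keratins without Krt10 (diamonds) in each tumour, PEG-glutaminase on the left. The simple-epithelial sum stays between 147 and 283, while the epidermal sum is 6840 in vehicle 1, 191 in vehicle 3 and between 61.4 and 69.4 in the other 4 tumours.

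Set side by side in each library, the simple-epithelial sum varied little and the epidermal sum varied widely. The sum of Krt7, Krt8, Krt18 and Krt19 was 229, 169 and 195 normalized counts in the PEG-glutaminase tumours, and 194, 283 and 147 in the vehicle tumours. The sum of Krt5, Krt14, Krt15, Krt1, Krt2, Krt10 and Krt77 was 69.4, 61.4 and 63.8 normalized counts in the PEG-glutaminase tumours, and 6840, 67.7 and 191 in the vehicle tumours. The epidermal share of the reads of both lists was 23.3%, 26.6% and 24.6% in the PEG-glutaminase tumours, and 97.2%, 19.3% and 56.5% in the vehicle tumours. The 95% Wilson interval was 96.8% to 97.6% in vehicle 1, 51.2% to 61.7% in vehicle 3 and 15.5% to 23.7% in vehicle 2. Vehicle 2 was thus the vehicle tumour whose share resembled those of the PEG-glutaminase group.

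In 4 of the libraries nearly all of the epidermal sum was Krt10. Without it, the epidermal share was 2.64%, 2.29% and 0.524% in the PEG-glutaminase tumours, and 96.1%, 0.687% and 43.0% in the vehicle tumours. These shares rest on 6, 4 and 1 epidermal reads in the PEG-glutaminase tumours, and on 4945, 2 and 113 in the vehicle tumours. The median fitted log2 change was 0.34 over the 2 simple-epithelial keratins tested and -3.31 over the 7 epidermal ones (-2.30 with genes at 0 set to their floor), beside -4.97e-05 over all tested genes. Without vehicle 1 the epidermal median was -1.28 as fitted and -0.36 with genes at 0 set to their floor. Of these 9 tested genes 0 passed in limma, and 0 had an unadjusted p under 0.05. Krt19, outside the test, had 46 reads in all 6 libraries. In the limma fit with no filter its unadjusted p was 0.00353 and its adjusted p 0.133.

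**Figure D4:**
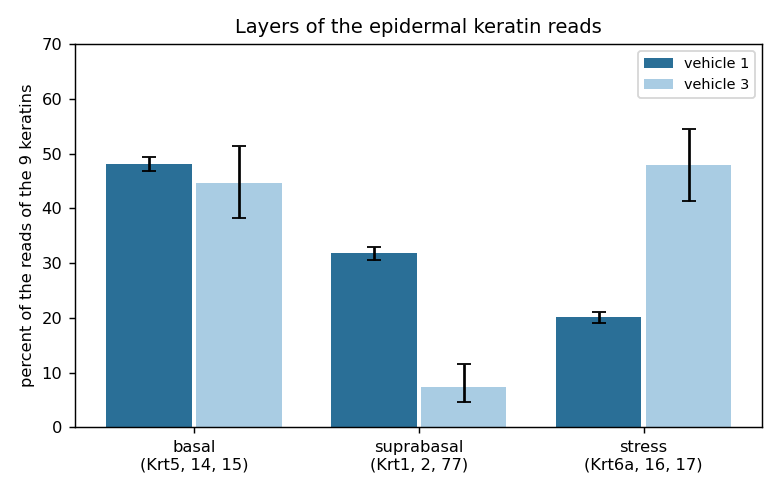
Percent of the reads of 9 epidermal and stress keratins (Krt10 left out) that fell on basal, suprabasal and stress keratins in vehicle 1 (dark) and vehicle 3 (light). Error bars are 95% Wilson intervals of 6191 and 217 reads, and the stress share is 20.1% in vehicle 1 and 47.9% in vehicle 3.

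Vehicle 1 and vehicle 3, with 4945 and 113 reads of epidermal keratins other than Krt10, differed in the layers these keratins belong to. In vehicle 1, basal keratins took 48.1%, suprabasal ones 31.8% and stress keratins 20.1% of 6191 reads, Krt10 left out. In vehicle 3, basal keratins took 44.7%, suprabasal ones 7.37% and stress keratins 47.9% of 217 reads. The Wilson intervals overlapped for the basal share only. The per-length ratio of Krt14 to Krt5 was 2.09 in vehicle 1 and 2.14 in vehicle 3. These are single tumours, so the difference has no replicate check.

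Several markers of skin other than the keratins were also high in vehicle 1. In that library, 9 of 11 cornified envelope genes and 8 of 8 suprabasal markers were at their highest, though 5 of these 8 are members (Krt1, Krt2, Krt10, Krt77 and Dsc1). So were 5 of 7 basal keratinocyte markers, among them the members Krt5, Krt14 and Krt15, but not Itgb4 or Dst (log2 changes of -0.0011 and 0.59). Other lists also had genes highest in vehicle 1, with 10 of 12 epithelial regulators, 7 of 9 plaque genes and 6 of 12 epithelial adhesion genes. The counts were 4 of 8 mesenchymal, 2 of 8 hemidesmosome and 0 of 8 skeletal muscle genes. The share over all genes is not given here. The 7 basal markers summed to 11122, 9753 and 13760 normalized counts in the PEG-glutaminase tumours, and 14161, 6780 and 9466 in the vehicle tumours. Itgb4 and Dst together made up nearly all of this sum outside vehicle 1, and most of it in vehicle 1. Loricrin (Lor), the main protein of the cornified envelope, had 0, 0 and 0 normalized counts in the PEG-glutaminase tumours, against 1098, 0.981 and 6.87 in the vehicle tumours. Sprr1a, a small proline-rich envelope protein of stressed epidermis, had 0, 0 and 0 normalized counts in the PEG-glutaminase tumours, against 80.2, 0 and 20.6 in the vehicle tumours. Sprr1b, a related gene, had 0, 0.990 and 0 in the PEG-glutaminase tumours, against 55.1, 1.96 and 3.92 in the vehicle tumours. The envelope list as a whole did not follow the epidermal keratins outside vehicle 1. Its sum was 945, 413 and 719 normalized counts in the PEG-glutaminase tumours, and 2051, 487 and 424 in the vehicle tumours. Most of this sum outside vehicle 1 was Cdsn (corneodesmosin), an adhesion protein of the upper epidermis, with 837, 323 and 633 normalized counts in the PEG-glutaminase tumours, against 537, 405 and 290 in the vehicle tumours. Tgm1, an enzyme that cross-links envelope proteins, had 68.4, 73.3 and 58.6 normalized counts in the PEG-glutaminase tumours, against 42.5, 51.0 and 55.9 in the vehicle tumours, so the PEG-glutaminase tumours were higher without overlap. Of 6 tested envelope genes 2 were higher and 4 lower by the fit. None passed in limma, and 2 had an unadjusted p under 0.05.

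Muscle markers did not follow the order of the epidermal keratins. Within the vehicle group, fat and sebaceous gland marker sums fell from vehicle 1 to vehicle 3 to vehicle 2, as the epidermal sum did. The highest fat sum was nevertheless that of PEG-glutaminase 2. The summed level of 8 skeletal muscle markers was 177, 1628 and 131 normalized counts in the PEG-glutaminase tumours, and 561, 254 and 1051 in the vehicle tumours. That of 8 fat cell markers was 128, 282 and 66.9 in the PEG-glutaminase tumours, and 262, 130 and 218 in the vehicle tumours. The 6 sebaceous gland markers summed to 6.21, 15.8 and 5.14 in the PEG-glutaminase tumours, and 36.7, 7.85 and 16.7 in the vehicle tumours, with the gland gene Fabp9 at 0 in every library. PEG-glutaminase 2 was thus close to vehicle 3 in this sum. Of the 6 gland markers 0 reached a mean of 10, and 3 were highest in vehicle 1. PEG-glutaminase 2 had the most muscle and fat marker RNA, with 4 reads of epidermal keratins other than Krt10. The part of adjacent skin in the keratin values was not tested.

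Among the desmosomal cadherins, Dsc2 had the highest RPKM in each tumour. Desmocollin 2 is the most widely expressed desmocollin and the one of simple epithelia. It had 21.8, 8.91 and 64.8 normalized counts in the PEG-glutaminase tumours, against 206, 191 and 87.3 in the vehicle tumours. The groups did not overlap. Vehicle 1 was highest and close to vehicle 2, which had 2 reads of epidermal keratins other than Krt10. The part of adjacent skin in the Dsc2 values was not tested. Dsc2 averaged 31.8 ± 29.3 normalized counts in PEG-glutaminase tumours and 161 ± 64.6 in vehicle tumours (SD, n = 3 each). The log2 change was -2.63 ± 0.76 (SE) with all tumours and -2.41 ± 0.90 without vehicle 1. It did not pass (limma adjusted p = 0.185), nor did it in any of 15 alternatives, whose adjusted p ran from 0.0670 to 0.384.

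Desmoglein 2, the widespread desmoglein of simple epithelia, was low and showed a like order. Dsg2 had 0, 0 and 4.12 normalized counts in the PEG-glutaminase tumours, against 16.4, 7.85 and 5.89 in the vehicle tumours, from 35 reads in all. The groups did not overlap, and a fit with no filter gave -2.57 ± 0.70 (SE; limma adjusted p = 0.102), or -2.18 ± 0.82 without vehicle 1.

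The epidermal cadherins rested on vehicle 1. Dsc3, the desmocollin of basal epidermis, had no read in the PEG-glutaminase tumours, against 184, 2.94 and 5.89 normalized counts in the vehicle tumours. Its mean was at least 63.3-fold lower in PEG-glutaminase tumours, and at least 4.34-fold lower without vehicle 1 (limma adjusted p = 0.184 with all tumours). The bound without vehicle 1 rests on 3 reads in vehicle 2 and 6 in vehicle 3. Dsc1, of the upper epidermis, had 1.04, 0.990 and 1.03 normalized counts in the PEG-glutaminase tumours, against 65.7, 0 and 0 in the vehicle tumours. Its log2 change of -1.01 turned to 1.01 without vehicle 1, which is a matter of 1 read in each PEG-glutaminase tumour. Dsg1b and Dsg3, the desmogleins of upper and lower epidermis, had no read in the PEG-glutaminase tumours, and 59.9 and 46.4 normalized counts in vehicle 1. Dsg3 also had 2.94 in vehicle 3, and vehicle 2 had none of either. Dsg4, a hair desmoglein, had 9 reads in all and Dsg1c 2.

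**Figure D5:**
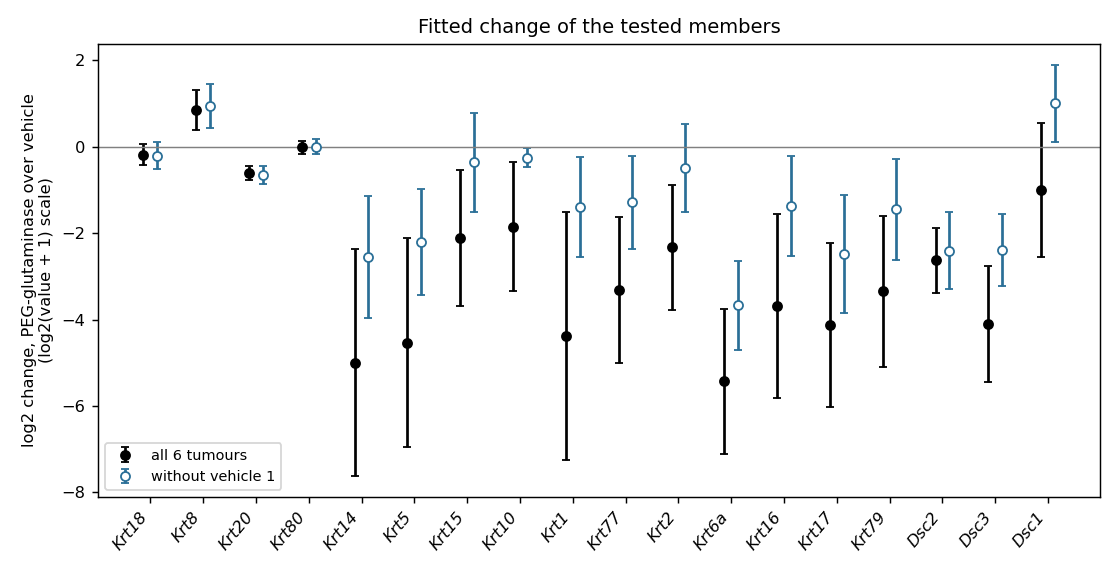
Fitted log2 change (PEG-glutaminase over vehicle, ± SE, on the log2(value + 1) scale) of the 18 tested members with all 6 tumours (filled) and without vehicle 1 (open). Krt20, Krt18, Krt80, Krt8 and Dsc2 keep about the same value, whereas the epidermal and stress keratins and Dsc3 move toward 0 and Dsc1 changes sign.

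The plaque proteins that join these cadherins to keratins split into those read in every tumour and those high in vehicle 1. Jup (plakoglobin), which binds the cadherin tails, had 820, 794 and 860 normalized counts in the PEG-glutaminase tumours, against 1438, 928 and 1138 in the vehicle tumours. The groups did not overlap, and the log2 change was -0.48 ± 0.14 (SE; limma adjusted p = 0.156), or -0.32 without vehicle 1. DESeq2 gave it an adjusted p of 0.0376, the lowest of 15 alternatives that reached 0.305. Dsp (desmoplakin), which anchors the keratins, had 0, 0.990 and 5.14 normalized counts in the PEG-glutaminase tumours, against 551, 3.92 and 11.8 in the vehicle tumours. Pkp1, a plakophilin of stratified epithelia, had 0, 0 and 3.09 in the PEG-glutaminase tumours, against 258, 0.981 and 12.8 in the vehicle tumours. Perp, a membrane protein of desmosomes and target of p63, had 2.07, 0 and 5.14 normalized counts in the PEG-glutaminase tumours, against 434, 4.91 and 21.6 in the vehicle tumours. The log2 changes of Dsp, Pkp1 and Perp were -3.82, -3.58 and -3.86 with all tumours, and -1.78, -1.71 and -2.12 without vehicle 1.

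Pkp4, a plakophilin relative found at many kinds of junction, was higher in the PEG-glutaminase tumours without overlap. It had 1789, 2024 and 1709 normalized counts in the PEG-glutaminase tumours, against 1622, 1546 and 1686 in the vehicle tumours, a log2 change of 0.18 ± 0.09 (SE; limma adjusted p = 0.287), or 0.11 without PEG-glutaminase 2. Of 9 plaque genes tested 8 were lower by the fit with all tumours and 0 passed in limma. Their median log2 change was -0.39, beside -4.97e-05 over all tested genes. Without vehicle 1 the plaque median was -0.32. The plaque genes Evpl and Ppl then turned from log2 changes of -0.36 and -0.044 to 1.30 and 0.52.

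Hemidesmosome genes, whose products tie keratins to the basement membrane, showed both directions. Plec (plectin), a linker of intermediate filaments that also serves other cell types, had 35465, 32333 and 34074 normalized counts in the PEG-glutaminase tumours, against 27965, 15844 and 23467 in the vehicle tumours. Its log2 change was 0.64 ± 0.19 (SE; limma adjusted p = 0.163, and 0.0145 to 0.323 over 15 alternatives, the lowest by DESeq2), and 0.41 without vehicle 2. Col17a1, the collagen of keratinocyte hemidesmosomes, had 5.18, 2.97 and 14.4 normalized counts in the PEG-glutaminase tumours, against 213, 4.91 and 31.4 in the vehicle tumours, high in vehicle 1 like Dsp, Pkp1 and Perp. Its log2 change of -2.25 was -0.94 without vehicle 1. Of 8 genes tested 5 were higher and 3 lower by the fit, and 0 passed in limma.

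The epithelial adhesion genes showed both directions too. Cdh1 (E-cadherin), the cadherin of adherens junctions, had 31.1, 35.6 and 37.0 normalized counts in the PEG-glutaminase tumours, against 125, 59.8 and 52.0 in the vehicle tumours. The groups did not overlap, and the log2 change was -1.06 ± 0.32 (SE; limma adjusted p = 0.154), or -0.68 without vehicle 1. Cldn1, a claudin of tight junctions, had 4.14, 3.96 and 10.3 normalized counts in the PEG-glutaminase tumours, against 28.0, 25.5 and 11.8 in the vehicle tumours, again without overlap. Epcam, an adhesion protein of simple epithelia, had 2.07, 7.92 and 3.09 normalized counts in the PEG-glutaminase tumours, against 58.0, 6.87 and 8.83 in the vehicle tumours. Of 7 tested adhesion genes 3 were higher and 4 lower by the fit, and 0 passed in limma.

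Of 12 regulators of epithelial identity 4 reached the mean of 10, and 0 passed in limma. Trp63 (p63), the master regulator of stratified epithelium and of Krt14 and Krt5, had 9.32, 2.97 and 20.6 normalized counts in the PEG-glutaminase tumours, against 62.8, 26.5 and 32.4 in the vehicle tumours. Vehicle 1 was highest, and vehicle 2, with 2 reads of epidermal keratins other than Krt10, had nearly as much as vehicle 3. The part of adjacent skin in the Trp63 values was not tested. The log2 change was -2.02 ± 0.61 (SE; limma adjusted p = 0.165), or -1.66 without vehicle 1. Esrp1, a splicing factor of epithelial cells, had 0, 0 and 0 normalized counts in the PEG-glutaminase tumours, against 43.5, 0 and 0.981 in the vehicle tumours. Grhl2, a regulator of epithelial junction genes, had 2.07, 4.95 and 1.03 in the PEG-glutaminase tumours, against 3.86, 3.92 and 0.981 in the vehicle tumours. Klf4, a factor of both gut lining and upper epidermis, had far more reads, with 5576, 4343 and 5594 normalized counts in the PEG-glutaminase tumours, against 5598, 5567 and 5355 in the vehicle tumours.

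Of the markers of colon epithelium, Cdx2, an intestinal transcription factor, had 23.8, 29.7 and 13.4 normalized counts in the PEG-glutaminase tumours, against 3.86, 17.7 and 7.85 in the vehicle tumours, and the groups overlapped. It was the 1 of 4 tested colon markers, Krt20 among them, that was higher in PEG-glutaminase tumours by the fit. Lgals4, a galectin of the gut lining, had 37.3, 41.6 and 42.2 normalized counts in the PEG-glutaminase tumours, against 65.7, 54.9 and 32.4 in the vehicle tumours. Cdh17, the intestinal cadherin, had 25.9, 15.8 and 26.7 in the PEG-glutaminase tumours, against 29.0, 31.4 and 17.7 in the vehicle tumours. Both overlapped between the groups. Cdx1 and Car1 had no read in any library. Vim (vimentin), the intermediate filament protein of mesenchymal cells, had more RPKM than any keratin in each library. Its levels were 106113, 87851 and 108398 normalized counts in the PEG-glutaminase tumours, against 123204, 139819 and 114254 in the vehicle tumours. The groups did not overlap, and the log2 change was -0.32 ± 0.13 (SE; limma adjusted p = 0.239).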

How the data were processed

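RNA sequencing of 6 tumours, 3 per group by the sample titles, was used. Per the labels' protocols, poly-T beads selected the messenger RNA and random hexamers primed its copying. The deposited table gives an expression signal, the authors' read counts divided by a size factor of each library. Per the submitters' processing notes the tools were STAR, featureCounts, FastQC, DESeq and DESeq2. Their versions, the genome build and the strandedness are not stated there. Rows are BALB/cJ gene models per the file headers, 40396 rows for 40303 models. The authors' own mean, fold change and p-value columns were not used, since 567 models with an authors' mean above 0 have 0 in all 6 libraries.

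Within each library 100% of the lower non-zero values, to which the check was limited, were whole multiples of a single step (tolerance 0.01). Reads were recovered from that step, and higher values were rounded to whole steps without this check. For PEG-glutaminase 2 the recovery rests on the values alone. limma 3.58.1 in R 4.3.3 (mean trend, robust) was run on log2(value + 1) for 13557 genes with a mean of at least 10, two-sided, with Benjamini-Hochberg adjustment over all of them and a threshold of 0.05. Fold changes on this scale understate low genes. Members, lists and tests were chosen with earlier results of these data known. Genes were named by a rule: the simple-epithelial keratins, members with a mean of at least 10, up to 4 members of smallest p in each of 19 marker and partner lists, and a set of epithelial genes; of the lists, only those that bear on the members are given. Cdsn, Itgb4, Dsg1b, Dsg1c, Dsg2, Dsg3 and Dsg4 were added after their values were seen. Transcript lengths, shared windows (50 bases) and coding sequences came from GENCODE M21, which is of another strain. Alternatives were pseudocounts of 0.5 and 5, other filters, TMM scaling, edgeR 4.0.16, DESeq2 1.42.0 and limma-voom on the recovered reads, a replicate block, and each library left out. Krt6b and Dsg1a are not analysed here. Some items are not reported here.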

Additional observations from a re-analysis of the deposited data

How the results depend on the processing

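Over all genes limma called 5, as did edgeR, limma-voom, TMM scaling, both pseudocounts and a mean of at least 50, while DESeq2 called 487, the fit with no filter 136, the replicate block 1, and the fits with 1 library left out 0 to 25. Without PEG-glutaminase 1, vehicle 1 or vehicle 2 limma called 0 genes, without PEG-glutaminase 2 it called 20 and without PEG-glutaminase 3 25. Of the keratins and cadherins 0 were called in 14 of 15 alternatives and 3 by DESeq2. Same-numbered tumours did not deviate together (correlations of -0.13, -0.21 and -0.22), so no shared effect of the replicate number was seen. With 3 tumours a group this cannot settle whether the tumours were paired. The replicate block called 0 members. The simple-epithelial median ran from 0.16 to 0.52 with 1 library left out and was -0.18 with a mean of at least 50, where Krt18 alone was left. The epidermal median ran from -4.97 to -1.28 with 1 library left out, was -8.34 by edgeR and -8.25 by DESeq2, and that of the cadherins ran from -3.34 to -1.97 with 1 library left out and was -4.28 by edgeR and -4.43 by DESeq2. Per kilobase the epidermal share was 18.0%, 20.3% and 19.5% in PEG-glutaminase tumours and 96.0%, 14.5% and 49.2% in vehicle tumours. With stress keratins it was 97.6% in vehicle 1 and 66.6% in vehicle 3. Of 484 alternative values of 36 named genes, 6 reversed and 5 passed that had not, the 5 passing ones by DESeq2. The reversals were Krt80 by edgeR (0.014) and DESeq2 (0.0098), and 4 with 1 library left out. Over the left-out libraries Krt80 ran from -0.15 to 0.17 (0.17 without PEG-glutaminase 2, 0.0071 without vehicle 1), Dsc1 from -2.02 to 1.01 (1.01 without vehicle 1) and Krt18 from -0.42 to 0.082 (0.082 without vehicle 2). The cause was not tested. Totals of 33, 46 and 35 reads in Krt7, Krt19 and Dsg2 limit what can be told of these members.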
